A study of Mus musculus with 2 samples.

Results

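Pan-neuronal genes encode the cytoskeleton, axon and synapse proteins that most neurons share, whatever their type. Chromatin accessibility was examined at 40 of these genes, chosen by name from the known biology of neurons. A peak was assigned to a gene when its summit lay in the GENCODE gene body or within 10 kb of either end. This gave 658 of the 117165 peaks of the control library and 701 of the 124935 peaks of the Ngn3-OE library. The 40 genes fell into 5 roles, with 9 microtubule genes, 5 growth cone and axon genes, 5 genes for RNA-binding proteins, 14 genes of synaptic vesicles and their release, and 7 adhesion genes.

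Both libraries were made from cells electroporated as late RPCs, retinal progenitors that still divide after birth in the mouse. In vivo electroporation of pups at P1 (postnatal day 1) delivered either a control plasmid or one for Ngn3 overexpression (Ngn3-OE). GFP-labelled cells were sorted by FACS at day 2 after electroporation. From these, 50000 cells went into each ATAC-seq library, in which the Tn5 transposase tags open DNA. On that day the study found a marker of dividing cells in only part of the GFP-labelled cells, and in a smaller share of them in Ngn3-OE. Both groups thus shared the age, the electroporation method, the GFP label and the sorting method, and the labels set them apart by the Ngn3 transgene. The transgene cannot be told apart from differences between the animals or the library preparations. Each group had 1 library, so no difference between them could be tested against the variation between animals, and all intervals below cover counting error only.

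Neurogenins are proneural transcription factors that bind E-box DNA elements and start neuronal differentiation. Many pan-neuronal genes carry RE1, the element bound by REST, a repressor that keeps neuronal genes off in non-neuronal cells and progenitors. SOX factors are known for holding neural progenitors in their dividing state. A promoter can be accessible in a progenitor before its gene is strongly transcribed, so accessibility is not a measure of expression.

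Sequence windows are shown at those one-library peaks leading by −log10 q and those most unequal shared peaks that held a searched motif. A peak of Celf4 that held one is not printed. Motifs of shared peaks, here and in the shares below, were read at the control summit. The E-box searched was the 10-letter Neurogenin element of the study, whose core is CATCTG, and the SOX motif was CCATTGT or CCTTTGT, each on both strands within 100 bp of the summit. Among all peaks of each class, the E-box was found in 4.06% of shared, 2.14% of control-only and 4.66% of Ngn3-OE-only peaks, and the SOX motif in 7.84%, 12.3% and 6.64% respectively. Capitals mark the match in these windows (mm10), which reach 100 bases to each side of the summit, taken from control for shared peaks.
Ncam1 control-only peak, chr9:49676200-49676400, forward strand: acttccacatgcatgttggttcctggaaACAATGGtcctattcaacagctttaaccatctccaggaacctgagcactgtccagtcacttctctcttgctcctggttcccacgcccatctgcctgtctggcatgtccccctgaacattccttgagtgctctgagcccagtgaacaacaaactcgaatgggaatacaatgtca
Nlgn1 Ngn3-OE-only peak, chr3:26026113-26026313, forward strand: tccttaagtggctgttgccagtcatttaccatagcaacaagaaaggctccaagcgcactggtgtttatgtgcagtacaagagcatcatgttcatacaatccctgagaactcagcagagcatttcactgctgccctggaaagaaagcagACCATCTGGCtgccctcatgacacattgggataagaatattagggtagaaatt
Map2 shared peak, higher, chr1:66263169-66263369, forward strand: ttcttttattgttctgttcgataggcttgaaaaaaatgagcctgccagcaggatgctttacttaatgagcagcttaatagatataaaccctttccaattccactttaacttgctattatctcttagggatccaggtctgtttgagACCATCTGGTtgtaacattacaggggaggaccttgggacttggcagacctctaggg
Nrxn3 shared peak, lower, chr12:89181289-89181489, forward strand: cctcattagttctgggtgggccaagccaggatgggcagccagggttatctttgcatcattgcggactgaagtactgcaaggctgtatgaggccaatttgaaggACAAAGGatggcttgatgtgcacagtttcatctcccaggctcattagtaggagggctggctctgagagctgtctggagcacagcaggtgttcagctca
Syt1 shared peak, lower, chr10:108524436-108524636, forward strand: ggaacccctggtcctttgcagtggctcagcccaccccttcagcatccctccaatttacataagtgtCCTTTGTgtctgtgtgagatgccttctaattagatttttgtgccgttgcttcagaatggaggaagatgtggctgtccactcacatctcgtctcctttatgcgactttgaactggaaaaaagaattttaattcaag
Ncam1 shared peak, lower, chr9:49624122-49624322, forward strand: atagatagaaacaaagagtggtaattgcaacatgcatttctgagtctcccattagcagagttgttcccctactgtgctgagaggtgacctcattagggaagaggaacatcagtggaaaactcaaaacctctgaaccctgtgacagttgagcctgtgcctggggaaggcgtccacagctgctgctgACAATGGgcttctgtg
The Nlgn1 and Map2 windows hold the E-box, at 48 and 45 bases after the summit. The other windows hold a SOX motif and come from peaks that were called in control only or had fewer tags in Ngn3-OE. This split depends on the summit used. At the Ngn3-OE summit the Syt1 and Ncam1 shared pairs held no SOX motif. The most unequal higher pair, at Nlgn2, held one there and none at its control summit, so it has no window. The Ncam1 control-only window also holds the E-box core CATCTG, which is not marked. A match is a description of the letters and does not show that a factor was bound.

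The RE1 search used the 21-letter RE1 consensus on both strands and allowed 3 mismatches in its 18 fixed letters. The 3 matches below lay inside called peaks of both libraries close to a start site, and capitals mark the fixed letters that matched.
Snap25, chr2:136714338-136714358, forward strand: TTCAGCACCgcGGACAGCgat
Syn1, chrX:20921130-20921150, reverse strand: TTCAGCACCgcGGtCAGagCC
Stmn3, chr2:181314201-181314221, reverse strand: gcCAGCACCatGGcCAGCaCC

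All 40 genes had peaks in both libraries. Per kb of window, the median gene held 0.114 peaks in control and 0.133 in Ngn3-OE, beside 0.0716 and 0.0776 over all 21911 protein-coding genes. For 50 other neuronal genes, such as the neurofilaments and tubulins, the medians were 0.110 and 0.116. Gene length differed widely, from 3.90 kb to 1612 kb. The 5 longest genes, Nrxn3, Nlgn1, Ank3, Syt1 and Ncam1, held 284 of the control peaks (43.2%) and 295 of the Ngn3-OE peaks. Among windows of up to 50 kb, the 13 members still held a median of 0.125 peaks per kb in control against 0.0805 for protein-coding genes.

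Vamp2, which encodes the vesicle SNARE protein synaptobrevin, had the densest peaks, with 0.251 per kb in control and 0.293 in Ngn3-OE. Its window is mostly flank, and 3 of its 6 control peaks and 3 of its 7 Ngn3-OE peaks lay within 1 kb of a start site of another gene. Rab3c, a small GTPase of secretory vesicles, had the sparsest, at 0.0243 per kb in each library. Ngn3-OE held more peaks than control at 24 genes, fewer at 9 and the same number at 7, where 42.4% of protein-coding genes with a peak had more and 24.5% fewer. These shares are not matched for window length, whose median was 76.4 kb at the members and 37.4 kb over protein-coding genes. The largest relative gain in density was at Sv2a, a synaptic vesicle glycoprotein, with 3 peaks in control and 6 in Ngn3-OE. Dcx, the microtubule protein of migrating neurons, went the other way, with 7 peaks in control and 5 in Ngn3-OE.

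**Figure D1:**
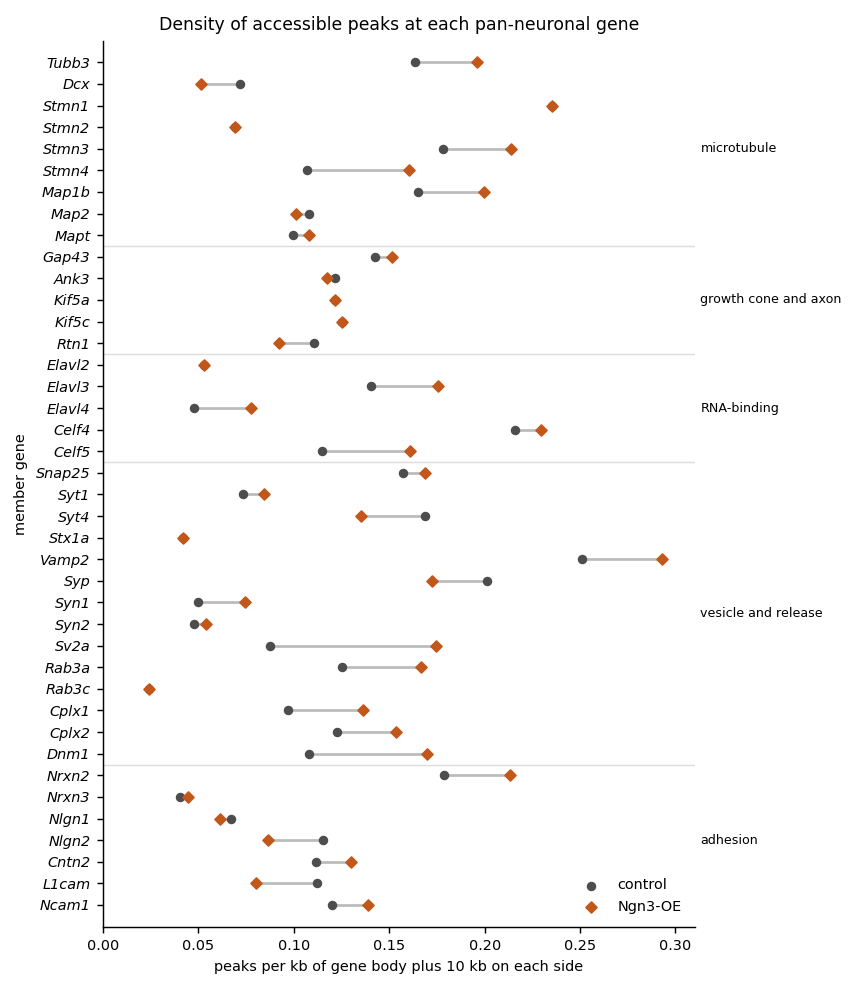
Peaks per kb of gene body plus 10 kb on each side (horizontal axis) at each of the 40 genes (vertical axis, grouped by role), with circles for the control library and diamonds for the Ngn3-OE library, 1 library each. Vamp2 lies farthest to the right and Rab3c farthest to the left, and the diamond lies to the right of the circle at 24 genes.

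Most peaks were shared, which here means an overlap of at least 1 bp with a peak of the other library. Control-only peaks numbered 140 of 658, or 21.3% (95% Wilson interval 18.3 to 24.6), where the share over all control peaks was 21.7%. Ngn3-OE-only peaks numbered 180 of 701, or 25.7% (22.6 to 29.0), where the share over all Ngn3-OE peaks was 26.6%. Both shares at the neuronal genes were thus near the background. Ngn3-OE-only peaks outnumbered control-only peaks by 0.36 on the log2 scale (interval 0.04 to 0.68), beside 0.48 in the windows of all protein-coding genes. With 50000 peaks taken from each list, the log2 value was 0.090, with an interval from -0.41 to 0.59. The one-library shares at that setting were 22.5% of control and 23.5% of Ngn3-OE peaks at the members, and 19.8% of each list over all peaks.

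Counted by gene, Ngn3-OE-only peaks were the more numerous at 23 members, against 42.2% of protein-coding genes with a peak, and control-only peaks at 7, against 23% of those genes. The numbers were equal at 10 members and at 6248 of the 17972 protein-coding genes. These shares are not matched for window length, and longer windows with more peaks leave fewer ties. By peaks, the members leaned no more to Ngn3-OE than the background did, as given above. At the vesicle and release genes 21 of 113 control peaks were control-only (18.6%, beside 21.7% over all peaks) and 40 of 133 Ngn3-OE peaks were Ngn3-OE-only (30.1%, beside 26.6%), and 10 of these 14 genes had more Ngn3-OE-only peaks. At the growth cone and axon genes the numbers were 41 of 148 (27.7%) and 35 of 142 (24.6%), and most of them came from Ank3, with 24 and 21. Ank3 encodes ankyrin-G, which organises the axon initial segment. Stmn1, Stx1a and Nlgn2 had no one-library peak in either list.

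One-library peaks were weak. The control-only peaks had a median of 5 tags at the summit and at most 21, and the Ngn3-OE-only peaks a median of 6 and at most 20. Tags are the pileup at the summit, as solved from the deposited values. The length to which tags were extended in peak calling is not given in the sources used here, so they are not a read depth. Only 4 control-only and 5 Ngn3-OE-only peaks reached a −log10 q of 10.

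By −log10 q, the 5 leading control-only peaks lay at Ncam1 (14 tags), Syt4 (10 tags), Nlgn1 (13 tags), Ank3 (10 tags) and Celf4 (14 tags). All lay in an intron except that of Syt4, a synaptotagmin, which lay in the downstream flank. Ncam1 encodes the neural cell adhesion molecule, and its peak lay 122458 bp inside the gene from the nearest start site. This is the first window printed above, and it holds the SOX motif.

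The 5 leading Ngn3-OE-only peaks by −log10 q lay at Kif5c (15 tags), Nlgn1 (15 tags), Gap43 (17 tags), Nrxn3 (12 tags) and Syt1 (11 tags). Kif5c encodes a kinesin heavy chain for axonal transport, and its peak lay in an intron, 53332 bp from the start site. Gap43 encodes a growth cone protein, and its peak lay 890 bp inside the gene, at chr16:42339710-42339812. Nlgn1 encodes a postsynaptic partner of the neurexins, and its intronic peak holds the E-box in the second window printed above. Nrxn3 and Syt1 also carried theirs in introns.

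Start sites were almost all accessible in both libraries. A peak summit lay within 1 kb of a transcription start site in 39 members in control (97.5%) and in 38 in Ngn3-OE (95%), where 64.7% and 65.1% of all protein-coding genes and 96% and 98% of the other neuronal genes had one. With a −log10 q of 5 or more the order turned, to 36 and 38 members. Dcx had none in either library. Kif5a, a neuronal kinesin heavy chain, had one in control only, with 11 tags. The member peaks held a median of 31 tags in control and 37 in Ngn3-OE, against 43 in both libraries for protein-coding genes. For the other neuronal genes the medians were 40 in control and 38 in Ngn3-OE. Syt1, the calcium sensor of fast release, had the strongest, with 187 tags in control and 191 in Ngn3-OE.

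The start-site peaks of 37 members overlapped between the libraries, and 33 of these pairs had 30 tags or more in all. Ratios of Ngn3-OE to control tags were divided by the ratio of the lowest local backgrounds of the lists, 0.983. On this scale 5 members were at least 1.5-fold higher in Ngn3-OE, where 4.09% of protein-coding genes were, and 1 was at least 1.5-fold lower, where 2.31% were. A ratio above 1 was seen in 22 of 33, against 58.9% of protein-coding genes. The median log2 ratio was 0.14 at the members and 0.058 over protein-coding genes. The other neuronal genes had 7 of 39 higher, 0 lower and a median of 0.13.

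Over all 36998 shared peak pairs with 30 tags or more, the median log2 ratio was 0.12. Relative to that median, 4 members were higher and 3 lower, where 2.37% and 4.16% of protein-coding genes were, and 18 of 33 lay above 1, against 39.7%. The 3 lower members were then Nrxn2, Nrxn3 and Mapt, and Elavl3 was no longer among the higher ones. With 60 tags or more required, 20 members remained, of which Map1b and Snap25 were higher, against 2.41% of protein-coding genes, and Nrxn2 was lower, against 1.09%.

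Among the microtubule genes, Stmn2 encodes a stathmin that binds tubulin dimers in growing axons. Its start-site peak (chr3:8509475-8509604) held 21 tags in control and 38 in Ngn3-OE, a ratio of 1.84 (exact conditional 95% interval 1.05 to 3.30). Map1b, a microtubule-associated protein of early axons, held 41 tags in control and 69 in Ngn3-OE at chr13:99516467-99516855, a ratio of 1.71 (1.15 to 2.58). That peak also lay within 1 kb of a start site of another gene.

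The other microtubule genes were closer between the libraries. Tubb3, the neuronal beta tubulin, held 52 tags in control and 65 in Ngn3-OE. Map2, the dendritic microtubule-associated protein, held 92 and 93 tags, and Stmn1 held 65 and 67. Mapt, which encodes the axonal protein tau, was lower, with 45 tags in control and 31 in Ngn3-OE, a ratio of 0.701 (0.429 to 1.13). The stathmins Stmn3 and Stmn4 held 14 and 25 tags in control and 17 and 21 in Ngn3-OE. Above-1 ratios numbered 6 of 8 as scaled and 4 of 8 relative to the median of all pairs.

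In the growth cone and axon group, Ank3 held 59 tags in control and 70 in Ngn3-OE. Rtn1, a reticulon of the endoplasmic reticulum, held 40 and 45 tags, and Gap43 15 and 17. Kif5c held 87 in control and 75 in Ngn3-OE. Every interval of these 4 ratios included 1.

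All 5 RNA-binding genes had ratios above 1 as scaled, and 4 of them relative to the median of all pairs, where Elavl2 fell just below. Elavl2, Elavl3 and Elavl4 encode neuronal Hu proteins that stabilise transcripts. Elavl2 held 128 tags in each library, and Elavl4 held 31 in control and 38 in Ngn3-OE. Elavl3 held 12 and 19 tags, a ratio of 1.61 with an interval from 0.742 to 3.64. Celf4, a splicing regulator, held 48 tags in control and 57 in Ngn3-OE, and its relative Celf5 held 21 and 24.

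Snap25 and Cplx1 were the vesicle and release genes past 1.5-fold. Snap25, a SNARE protein of the plasma membrane, held 31 tags in control and 56 in Ngn3-OE at chr2:136713294-136713515, a ratio of 1.84 (1.16 to 2.95). Cplx1, a complexin that clamps SNARE complexes, held 21 and 36 tags, a ratio of 1.74 with an interval from 0.991 to 3.14. Its partner Cplx2 held 25 in control and 30 in Ngn3-OE.

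Several other vesicle genes had fewer tags in Ngn3-OE. Rab3a, a vesicle GTPase, held 152 tags in control and 120 in Ngn3-OE, a ratio of 0.803 (0.627 to 1.03). Dnm1, the dynamin of vesicle retrieval, held 30 and 24 tags, and the plasma membrane SNARE Stx1a held 37 and 33. Syn1, a synapsin that tethers vesicles, held 30 in control and 28 in Ngn3-OE, whereas Syn2 held 51 and 60. Rab3c held 100 and 108 tags. Vamp2 held 24 in control and 26 in Ngn3-OE, and the vesicle protein synaptophysin, Syp, held 15 and 19. Syt4 (13 and 16 tags) and Sv2a (7 and 11 tags) had fewer than 30 tags in all and were not called.

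The 4 adhesion genes with enough tags all had ratios under 1, with a median log2 ratio of -0.45, and did so also relative to the median of all pairs. Nrxn2, a presynaptic neurexin, held 68 tags in control and 42 in Ngn3-OE at chr19:6418599-6418812, a ratio of 0.628 (0.417 to 0.936). Nrxn3, another neurexin, held 21 and 14 tags, a ratio of 0.678 (0.319 to 1.40). Ncam1 held 46 tags in control and 38 in Ngn3-OE, a ratio of 0.840 (0.532 to 1.32). For Nlgn2, a neuroligin of inhibitory synapses, the values were 69 and 54, a ratio of 0.796 (0.547 to 1.15). Only the Nrxn2 interval lay below 1. Over all places the adhesion genes did not lean the same way, with 8 higher and 6 lower of 46 pairs and a median log2 ratio of 0.11. Among all shared pairs 15.9% were higher and 8.14% lower. The Nrxn2 and Nlgn2 peaks lay within 1 kb of a start site of another gene. Cntn2 (9 and 11 tags) and L1cam (5 and 7 tags), adhesion molecules of growing axons, were below 30 tags in all. The strongest start-site peaks of Nlgn1, with 27 tags in control and 20 in Ngn3-OE, were different regions and were not compared.

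**Figure D2:**
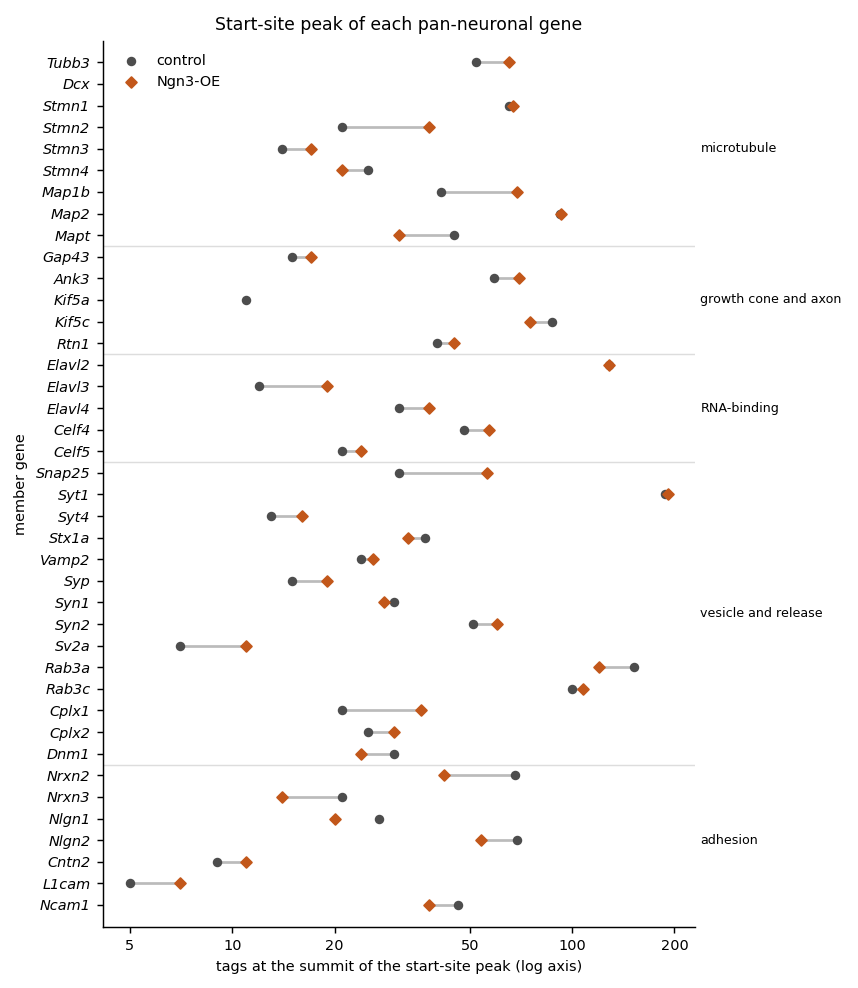
Tags at the summit of the strongest start-site peak (horizontal log axis) of each member (vertical axis, grouped by role) in the control library (circles) and the Ngn3-OE library (diamonds), with a line where both peaks are the same region. Stmn2, Snap25, Cplx1 and Map1b show the longest lines towards Ngn3-OE among peaks with more than 20 tags, and Nrxn2 the longest towards control. Dcx has no point and Kif5a 1.

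Markers of other retinal cells moved alongside these values. The summed start-site tags of 4 photoreceptor markers (Otx2, Crx, Nrl, Nr2e3) were 157 in control and 231 in Ngn3-OE, with 4 of 4 higher. For 10 progenitor markers the sums were 510 and 449, with 8 of 10 lower, and for 5 markers of ganglion, amacrine and horizontal cells 91 and 105, with 3 of 5 higher. Most of that last rise came from Pou4f2, with 9 tags in control and 21 in Ngn3-OE. Isl1 held 36 and 38 and Tfap2a 14 and 17, whereas Gad1 (15 and 13) and Onecut1 (17 and 16) were lower in Ngn3-OE. No start-site peak was found at the microglial genes Ptprc, Cx3cr1 and C1qa. Of 3 endothelial markers, 1 had a start-site peak in each library, and of 4 markers of astrocytes and pigment epithelium, 2 had one in control and 1 in Ngn3-OE. All 10 progenitor markers had a start-site peak in both libraries. Their part in the values of the neuronal genes was not tested, and in these bulk libraries a change in the share of a cell type and a change in accessibility per cell cannot be told apart.

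Each control peak was paired on its own, so the same Ngn3-OE peak could enter more than 1 pair. At Map2 an Ngn3-OE peak of 25 tags was counted as higher against each of the control peaks of 11 and 15 tags that it overlapped. Over all places, start sites included, the members had 518 shared peaks in control, of which 219 held 30 tags or more with their partner. At least 1.5-fold more tags in Ngn3-OE were found in 47 of them (21.5%, interval 16.5 to 27.4), where the share over all such pairs was 15.9%. At least 1.5-fold fewer were found in 19 (8.68%, 5.62 to 13.2), where the share was 8.14%. At the other neuronal genes 24.9% of pairs were higher (19.4 to 31.3) and 8.46% lower, with a median log2 ratio of 0.23 against 0.19 at the members. Relative to the median of all pairs the split was 39 higher (17.8%) and 26 lower (11.9%), against 11.5% and 10.7% of all pairs. Most peaks lay in introns, which held 506 of the control and 526 of the Ngn3-OE peaks. Away from start sites, 24.6% of member pairs were higher and 9.58% lower, beside 21.3% and 11.6% over all such pairs, so the higher share there was nearer to its background. With 60 tags or more, 15 of 89 member pairs were higher (16.9%) and 6 lower (6.74%), against 9.97% and 3.63% of all pairs. At 2-fold, 12 of 219 were higher (5.48%) and 11 lower (5.02%), against 4.45% and 3.4%.

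The higher pairs were spread over 25 members and the lower ones over 12, and 11 members had both. The same counts over protein-coding genes were not made. Members had longer windows than protein-coding genes (median 76.4 kb against 37.4 kb), so these counts are not a result about the members. Celf4 had the most called pairs, with 5 higher and 6 lower among its introns. One of its intronic peaks held 71 tags in control and 116 in Ngn3-OE, and another held 103 and 63. Gap43 had 4 higher pairs and none lower. Ank3 had 5 higher and 1 lower.

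The pair with the largest ratio was at the start of Nlgn2, with 16 tags in control and 54 in Ngn3-OE, a ratio of 3.43 (1.94 to 6.42). The summits of that pair lay 668 bp apart in a broad Ngn3-OE peak that also overlapped the stronger control peak of the gene, so the ratio does not compare 1 site. The same 54 tags gave the start-site ratio of 0.796 above. Next came an intron of Map1b with 10 and 25 tags, a ratio of 2.54 (1.18 to 5.93). A peak upstream of Stmn1 held 14 tags in control and 34 in Ngn3-OE, a ratio of 2.47 (1.29 to 4.98).

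An intron of Cntn2 held 15 and 35 tags, a ratio of 2.37 (1.26 to 4.68). The Map2 intron with the E-box printed above held 11 tags in control and 25 in Ngn3-OE, a ratio of 2.31 (1.10 to 5.20). Outside Nlgn2, the summits of these pairs lay at most 87 bp apart.

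The lowest ratio was in an intron of Nrxn3, with 70 tags in control and 20 in Ngn3-OE, a ratio of 0.291 (0.167 to 0.483). An intron of Syt1 held 30 and 10 tags, a ratio of 0.339 (0.148 to 0.712), with summits 221 bp apart. In Ncam1 an intronic peak held 44 tags in control and 17 in Ngn3-OE, a ratio of 0.393 (0.210 to 0.702). The Nrxn3, Syt1 and Ncam1 windows printed above, at the control summits, hold the SOX motif. At the Ngn3-OE summit it was present for the Nrxn3 pair and absent for the Syt1 and Ncam1 pairs.

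The other lower pairs named by size were a pair of Celf4 introns. The first held 24 tags in control and 9 in Ngn3-OE, a ratio of 0.381 (0.156 to 0.850), and also held a SOX motif. The second held 25 and 10 tags, a ratio of 0.407 (0.174 to 0.877), and held neither motif. An Ank3 intron (30 and 12 tags) and another Celf4 intron (45 and 18 tags) had the same ratio.

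**Figure D3:**
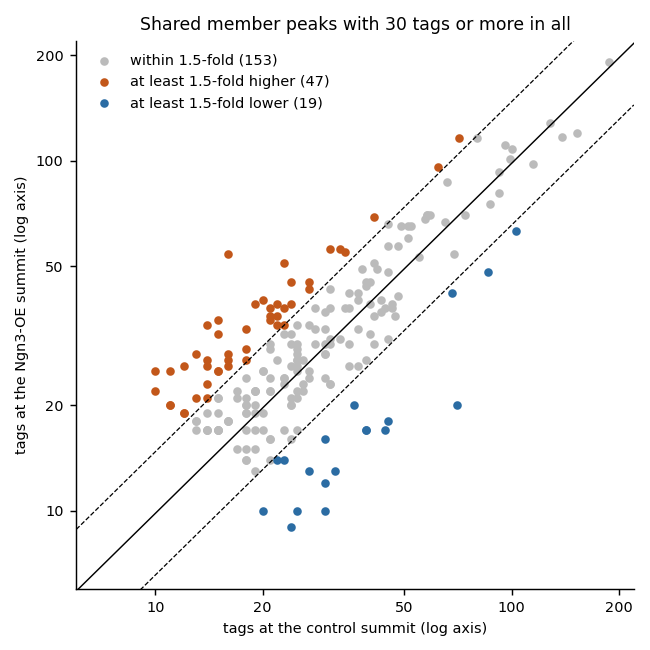
Tags at the Ngn3-OE summit against tags at the control summit (both log axes) for the 219 shared member peaks with 30 tags or more in all. The solid line is equality after scaling and the dashed lines are 1.5-fold, with 47 points on or above the upper line and 19 on or below the lower.

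**Figure D4:**
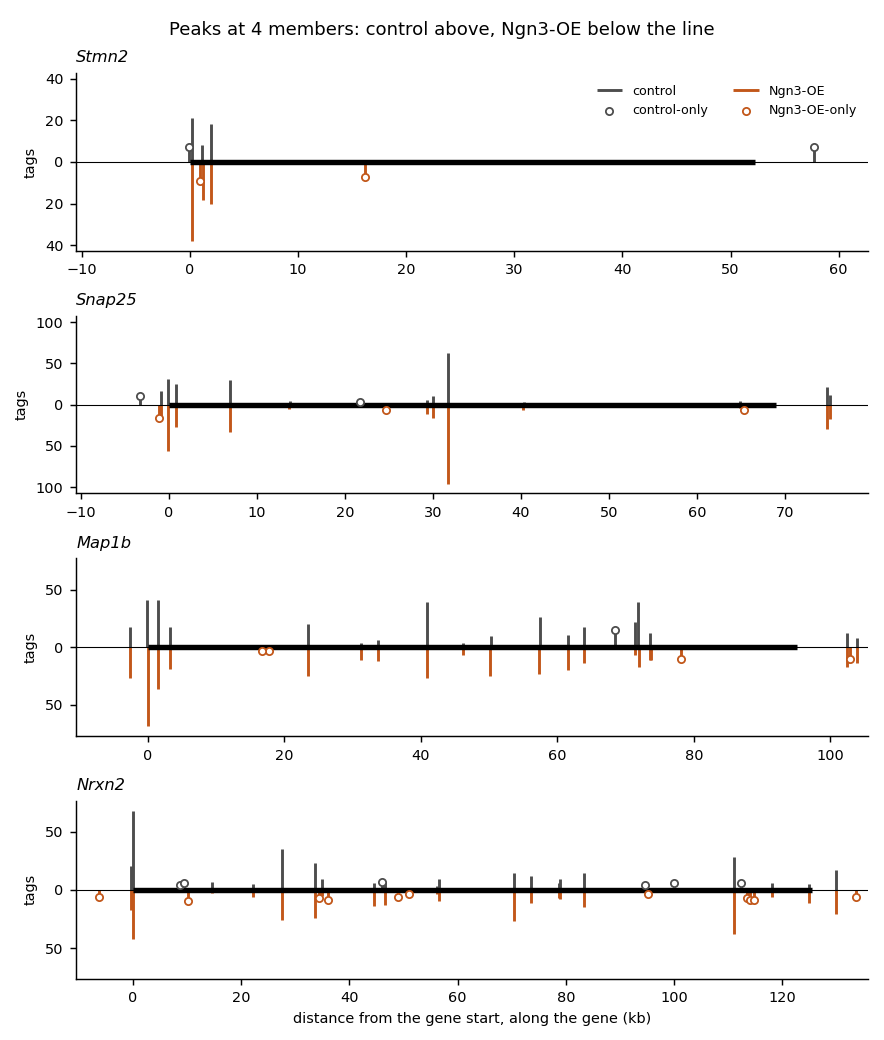
Peaks of Stmn2, Snap25, Map1b and Nrxn2 by distance from the gene start in kb (horizontal axis), with tags (vertical axis) drawn upward for control and downward for Ngn3-OE, the gene body as a thick line and open circles for one-library peaks. The peak at the start is longer in Ngn3-OE at the first 3 genes and longer in control at Nrxn2.

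The E-box was found in 11 of 180 Ngn3-OE-only member peaks (6.11%, 3.45 to 10.6), in 2 of 140 control-only peaks (1.43%, 0.393 to 5.06) and in 21 of 518 shared peaks (4.05%, 2.67 to 6.12). The difference between the one-library classes was 4.68 percentage points (Newcombe interval 0.179 to 9.30), beside 2.52 over all peaks. For the core CATCTG alone the difference was 10.2 points at the members and 5.23 over all peaks. The counts behind these shares are small, and the background values lie inside the members' intervals.

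The SOX motif was found in 18 of 140 control-only member peaks (12.9%, 8.29 to 19.4) and in 15 of 180 Ngn3-OE-only peaks (8.33%, 5.11 to 13.3). The difference of -4.52 points had an interval from -11.8 to 2.22, which includes 0, beside -5.61 over all peaks. Within 50 bp of the summit it was -8.10 points (-14.7 to -2.41), beside -4.08 over all peaks, and within 250 bp it was -7.30 (-16.2 to 1.31), beside -5.63. For peaks with a −log10 q of 5 or more it was -10.9 (-21.3 to -1.55), beside -8.04. The values over all peaks lie inside each of these intervals. Of the 19 shared peaks with fewer tags in Ngn3-OE, 6 held the SOX motif (31.6%, 15.4 to 54.0), against 20.3% of all such peaks. The E-box was in 3 of these 19 peaks, at Kif5c, Nlgn1 and Celf4 (15.8%, 5.52 to 37.6), against 1.99% of all such peaks. It was in 3 of the 47 peaks with more tags, at Map2, Cplx1 and Ncam1 (6.38%, 2.19 to 17.2), against 7.17%. The E-box share was thus above its background among the lower member pairs, on 3 peaks, and near it among the higher ones.

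**Figure D5:**
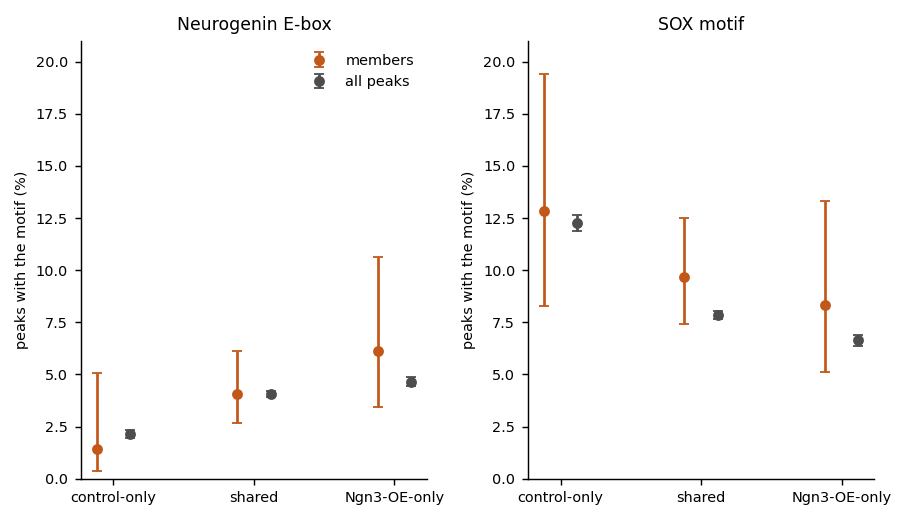
Share of peaks in percent (vertical axis) with the Neurogenin E-box (left) or the SOX motif (right) within 100 bp of the summit, for control-only, shared and Ngn3-OE-only peaks, at the members and over all peaks. Bars are 95% Wilson intervals, and each member interval in the plot spans the value over all peaks, at widths set by 140, 518 and 180 member peaks.

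RE1 matches were frequent at these genes. They were found at 19 of 40 members (47.5%), against 26.0% of the other neuronal genes and 10.6% of protein-coding genes. The members held 30 matches, or 4.06 per Mb of window, beside 2.40 and 1.46 per Mb in those sets. Of these 30, 3 had 1 mismatch, 6 had 2 and 21 had 3. The 3 closest matches lay at Dcx, Stmn2 and Celf5.

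A match was counted in a peak when its midpoint lay there. Of the 30 RE1 matches, 7 lay in a control peak (23.3%, 11.8 to 40.9), where 29.4% of the matches at the other neuronal genes (5 of 17) and 9.17% of those at protein-coding genes did. In an Ngn3-OE peak there were 6 (20%, 9.51 to 37.3), where 17.6% (3 of 17) and 5.51% did. The members' shares thus lay near those of the other neuronal genes. In each library 3 of the matches shared 1 peak of Celf4, which these intervals count as independent. Counted by gene, 5 of 40 members (12.5%) had a match in a peak, against 4 of 50 other neuronal genes (8%) and 1.21% of protein-coding genes. Of the 30 matches, 23 lay in a peak of neither library. The Syp match, among these 23, reached into the edge of the control start-site peak. At Snap25 the match lay in a peak 870 bp into the gene, with 25 tags in control and 27 in Ngn3-OE. At Syn1 the start-site peak with the match held 30 and 28 tags, and at Stmn3 14 and 17. At Syt4 the match lay in a control peak of 7 tags and outside the interval of the Ngn3-OE peak that overlaps it. The other matches in peaks were those in the Celf4 intronic peak with 24 tags in control and 9 in Ngn3-OE. The Stmn2 match lay upstream, at -1120 bp from its start site, and in no called peak.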

How the data were processed

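Each group, control and Ngn3-OE, was taken from the sample titles and had 1 ATAC-seq library. Per the labels and the study's methods, the authors aligned reads to mm10 with Bowtie2, removed duplicates (Picard 2.20.4), mitochondrial reads (SAMtools 1.6) and blacklisted regions (bedtools 2.30.0), shifted short fragments for the Tn5 cut (deepTools 3.1.3) and called peaks per library with MACS2 2.2.4 at q under 0.05. Nucleosomal fragments were thus left out. The deposited files give a score, a fold enrichment, −log10 p-values and −log10 q-values, and a summit offset for each peak. These are not normalised between libraries, and the sequencing depth is unknown.

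Lines with equal intervals on the 21 chromosomes were merged. The deposited fold and −log10 p were solved for whole-number tags and background, and 100% of peaks gave whole tags within a residual of 0.01. The solution was tested on simulated data with a lower limit on the background, a limit that was not set for the deposited peaks. Genes and start sites came from GENCODE M21, and all sequences from the GRCm38 reference. Pairs with 30 tags or more in all were called at 1.5-fold. Intervals (Wilson for shares, Newcombe for their differences, exact conditional for tag ratios, normal for log2 ratios of peak counts) are at 95%. Python 3.11.15, numpy 2.4.6, pandas 2.3.3 and scipy 1.17.1 were used.

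The members and lists were chosen with earlier results of these data known. Named items were the start-site peak of each member, the 5 one-library peaks per library with the highest −log10 q, the 5 most unequal pairs per direction, the densest and sparsest members, and members with RE1 matches. Alternatives covered peak thresholds, flanks, overlap, start-site and motif windows, scaling and mismatches. Differential regions and RNA-seq were not used here. A marker of the cell type lists is not reported here.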

Additional observations from a re-analysis of the deposited data

How the results depend on the processing

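Of 118 values under 23 alternative settings, 90 stayed within 1.5 times the count or inside the interval of the main value, 28 moved, and no log2 ratio, rank shift or difference changed sign. The order of the libraries turned for the members with a start-site peak, from 39 in control and 38 in Ngn3-OE to 36 and 38 with −log10 q of 5 or more and to 33 and 35 at 10, and with a 3 kb window both had 39. With −log10 q limited to 5 or more, the control list had 438 peaks at the members and 377 at the other neuronal genes, and at 10 the lists had 258 and 273 at the members. Without the 5 longest members there were 374 and 406 peaks, a control-only share of 17.4% and 12 lower pairs. An overlap of 50% of both peaks gave one-library shares of 31.3% and 35.5%, where all peaks gave 32.0% and 36.2%. With 60 tags or more, 15 shared pairs were higher and 6 lower. Of 20 start-site pairs left, 2 were higher and 13 above 1. At 2-fold, 12 pairs were higher and 11 lower. Scaling by the median ratio of all pairs gave a median log2 ratio of 0.077 and 3 lower start-site pairs. The core CATCTG gave a difference of 10.2 points. With 2 mismatches 9 members had 9 RE1 matches, 3 in control and 2 in Ngn3-OE peaks, and with 4 mismatches 34 members had 97, 13 and 12 in peaks. The start-site settings at 60 tags and at the median scaling, and the pairs with summits within 100 bp, were chosen after seeing the data. No paired analysis was possible because each group had 1 library, and a library left out would leave none in its group. Peaks with few tags limit the one-library calls.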
